A study of Mus musculus with 12 samples.

Results

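Concanavalin A (ConA) is a plant lectin that activates T cells when it is injected into a vein, and in mice it causes an immune-mediated hepatitis. The livers of mice taken 3 h after ConA injection were compared with those of control mice at 0 h across all genes on the array, using 6 of the 12 arrays of the series. There were 3 arrays in each group, and 3 arrays at 1 h and 3 at 6 h entered the same statistical fit and served to place the values at 3 h in time. All mice were male Balb/c of 8 to 10 weeks, total RNA came from whole liver, and the 3 h group had received ConA at 20 mg/kg through the tail vein. The labels call the 0 h mice untreated, whereas the methods of the study name PBS as the control injection. Control mice were sampled only at 0 h, so an effect of ConA and one of the time of day cannot be told apart. The protocol speaks of liver from each mouse, but the labels do not say more on whether the arrays of a group come from separate animals, so that the p-values measure the spread between these arrays.

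T cells and natural killer T cells activated by ConA release interferon gamma and TNF, which act on macrophages, endothelial cells and hepatocytes. Interferon gamma acts through STAT and IRF transcription factors on guanylate-binding proteins and antigen presentation genes, and TNF acts through NF-kB on chemokines, adhesion molecules and its own inhibitors. Hepatocytes answer to cytokines of the interleukin-6 family with the acute-phase response, in which secreted defence proteins rise, and metabolic enzymes and the nuclear receptors that drive them often fall in an inflamed liver.

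The values are linear signal intensities as deposited. Every signal below 3.038 was raised to that value, called the floor, which is where the lowest 20% of the table end. After a log2 transformation, each of 18193 genes was represented by its brightest probe with a single gene symbol. A gene was called higher or lower where limma gave an adjusted p under 0.05. Values of single arrays are listed in the order of replicates 1, 2 and 3, differences are 3 h minus 0 h on the log2 scale, and with 3 arrays per group the precision is low. The tissue matched its label: the 8 hepatocyte markers measured had a summed signal of 67967 to 72233 in the controls and 62016 to 66239 at 3 h, or 64376 to 78565 and 75290 to 78613 after the rescaling described next.

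The 3 h arrays were dimmer than the control arrays. Their median signals were 14.8, 14.5 and 13.7, and those of the controls 17.0, 18.4 and 15.6, so that the 2 groups did not overlap. From 21.2 to 23.1% of the probes lay at the floor at 3 h and from 18.9 to 20.4% at 0 h. The median log2 difference over all genes was -0.21 as deposited and -0.01 after each array was scaled to the same median over its brighter probes. As deposited, 937 genes (5.15%) were higher and 2675 genes (14.7%) were lower at 3 h. After rescaling, 1572 genes (8.64%) were higher and 1391 genes (7.65%) were lower, and after quantile normalization 1450 and 1643. The share of calls that were lower thus moved from 74.1% to 46.9% with rescaling. The count of 2675 also rested on single arrays, falling to 1621 when control replicate 2 was left out, to 1751 when control replicate 1 was, and to 1762 when 3 h replicate 3 was. The 937 genes higher as deposited were all higher after rescaling as well, 1388 genes were lower under both, 1287 were lower only as deposited, 635 were higher only after rescaling, and none changed direction. The 12 common reference genes measured had differences from -0.28 to -0.03 as deposited, and their median was -0.13 as deposited and 0.10 after rescaling. None was called either way under these 2 settings, and 1 was lower after quantile normalization. These genes thus do not favour either setting. Because the calls moved with the scaling, medians of gene groups are given after rescaling. A fall is said to be lost where rescaling ended its call.

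**Figure D1:**
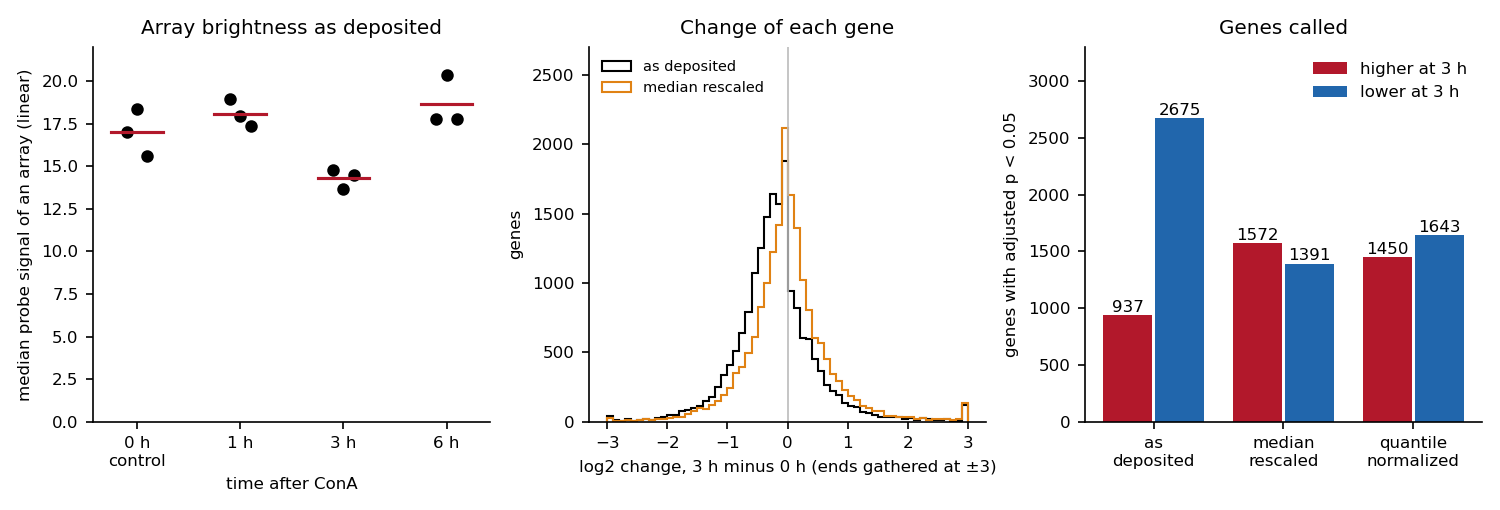
Left, median linear probe signal of each of the 12 arrays (points) with the mean of each group (red line); the 3 arrays at 3 h, from 13.7 to 14.8, lie below all others. Middle, number of genes by log2 difference, 3 h minus 0 h, as deposited (black) and after median rescaling (orange), with the medians at -0.21 and -0.01; right, genes called higher (red) and lower (blue) under each scaling.

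Large changes were mostly rises. As deposited, 118 genes were at least 8-fold higher and 38 were at least 8-fold lower among those called, and after rescaling these counts were 127 and 27. At 16-fold or more they were 60 and 6 as deposited, and 71 and 4 after rescaling. The split of large changes between rises and falls therefore depended less on the scaling than the count of all calls. It does depend on the floor, because a gene that is dim at 0 h can rise this far but cannot fall this far. Large rises and large falls were thus not equally measurable.

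**Figure D2:**
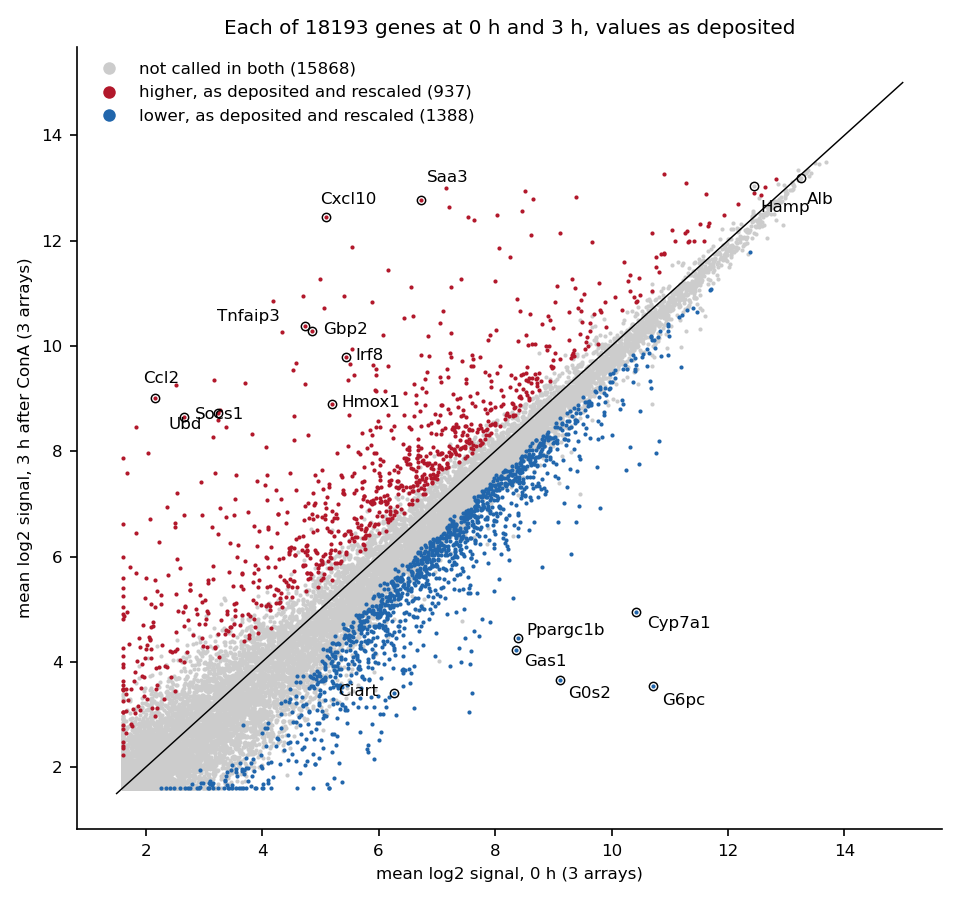
Mean log2 signal of each of 18193 genes in the 3 control arrays (horizontal axis) and the 3 arrays at 3 h (vertical axis), as deposited; the line marks equal values. Genes called higher (red, 937) or lower (blue, 1388) both as deposited and after rescaling are coloured, and named genes are circled; Cxcl10 and Saa3 stand far above the line and G6pc and Cyp7a1 far below it, while Alb lies near it.

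By brightest probes, the largest rise was that of Cxcl10, a chemokine induced by interferon gamma that attracts activated T cells. The signal of Cxcl10 was 29.5, 60.2 and 22.9 in the controls and 6007, 5339 and 5501 at 3 h, a log2 difference of 7.35 (SE 0.35, adjusted p = 1.9e-06). Ccl2, which recruits monocytes, had signals of 1.44, 9.62 and 1.00 in the controls, of which 2 were at the floor, and of 538.1, 463.1 and 541.5 at 3 h (6.84, SE 0.44, adjusted p = 1.3e-05). Mmp13, a collagenase, rose from 6.95, 6.77 and 4.03 to 606.9, 629.7 and 610.7 (6.75, SE 0.22, adjusted p = 3.9e-07). In all of these genes the lowest array at 3 h was many times brighter than the highest control array.

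Among the other 12 of the 15 largest rises were innate receptors and inhibitors of signalling. Tlr2, the receptor for bacterial lipoproteins, had a log2 difference of 6.25 (signals 26.4, 30.3 and 21.9 against 1993, 2168 and 1800, adjusted p = 1.9e-07). Cd274, which encodes the ligand PD-L1 that restrains T cells, rose by 6.18 on the log2 scale from signals of 8.88, 5.66 and 14.5 to 684.2, 670.7 and 607.2 (adjusted p = 4.7e-06). Socs1, an inhibitor of cytokine signalling through JAK kinases, went from 2.40, 14.1 and 5.78 to 357.0, 500.5 and 369.4 (6.01, adjusted p = 3.3e-05). Thus an activating receptor and inhibitors of the response were among the same largest rises. Acod1, the enzyme that makes itaconate in activated macrophages, had its 3 control arrays at the floor and signals of 204.1, 226.2 and 272.9 at 3 h, at least 76.6-fold higher (adjusted p = 2.3e-05). Hcar2, a receptor for ketone bodies and niacin, reached 327.5, 409.9 and 331.4 at 3 h with 2 control arrays at the floor (6.64, adjusted p = 1.5e-06). The remaining genes were Calhm6 (6.66), the guanylate-binding protein Gbp2b (6.34), the GTPase Rnd1 (6.27), the acute-phase protein Saa3 (6.04), the transcription factor Batf2 (5.93), the growth arrest gene Gadd45g (5.92) and Olr1 (5.90), a receptor for oxidized LDL.

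The largest falls were those of metabolic genes, with less even arrays. G6pc, which releases glucose in the last step of gluconeogenesis, had signals of 1548, 2079 and 1463 in the controls and 33.7, 2.02 and 15.4 at 3 h, a log2 difference of -7.17 (SE 0.93, adjusted p = 0.00085), with 1 array at 3 h at the floor. Cyp7a1, which sets the pace at which cholesterol is turned into bile acids, fell from 1598, 2747 and 578.5 to 32.9, 14.2 and 61.8 (-5.47, SE 0.76, adjusted p = 0.0012). G0s2, an inhibitor of the lipase that opens lipid droplets, went from 667.6, 990.2 and 254.7 to 13.4, 7.08 and 21.2 (-5.45, SE 0.90, adjusted p = 0.0032). No array at 3 h reached the lowest control array in any of these genes, although the controls of Cyp7a1 and G0s2 differed widely among themselves.

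Next in size among the 15 largest falls were Spata2l (-4.51), the potassium channel Kcnk5 (-4.20), the growth arrest gene Gas1 (-4.14) and Ppargc1b (-3.93), a coactivator of mitochondrial and lipid genes. Ppargc1b had signals of 320.7, 464.0 and 252.5 in the controls and 27.54, 22.01 and 17.65 at 3 h (adjusted p = 7.8e-06), and Gas1 had 315.7, 404.5 and 276.2 against 20.2, 16.1 and 19.8 (adjusted p = 0.0014). Arhgef15, an exchange factor of vascular cells, and Fbxo32, a ubiquitin ligase of muscle wasting, had all 3 arrays at 3 h at the floor and were at least 11.7-fold and at least 11.6-fold lower. The list also held Rbmxl2 (-3.77), the sphingosine phosphate receptor S1pr5 (-3.66), Map3k21 (-3.53), the parathyroid hormone receptor Pth1r (-3.50) and Mycl (-3.47). Dimmer probes of Arhgef15 (-0.6 and -0.8), Map3k21 (-0.97) and Mycl (-0.93 and -1) were not called. Dimmer probes were called lower for Kcnk5 (-2.34), Gas1 (-2.53) and Fbxo32 (-2.12), while further probes of Gas1 (-1.36) and Fbxo32 (-1.93) were not called. Ass1, an enzyme of the urea cycle, was represented by 1 probe, whose signals were 241.9, 147.7 and 190.8 at 0 h and 14.2, 14.7 and 17.7 at 3 h (-3.62, adjusted p = 0.00048). That probe was dim, with a mean log2 signal of 6.25 over the 12 arrays, against 13 for Cps1 of the same pathway. Whether it reads the main Ass1 transcript was not tested. Of 16 urea cycle and arginine genes 2 were higher and 2 lower, and their rescaled median was 0.03.

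Promoters are shown for the largest rise within each of 6 gene lists described below, and for the largest fall among the clock genes, so that a reader can see the DNA next to which these changes were measured. They were taken from RefSeq (build GRCm38.p6) and run 5′ to 3′ along the gene's strand over 300 bases from 250 before the start site. The table held no promoter of Mx2, whose place Irf8, the next gene of its group, took, and for Irf8 and Tnfaip3 the first of 2 start sites is shown. Capitals mark matches, on either strand, to the cores of sites for IRF (GAAANNGAA), STAT (TTCNNNGAA) and NF-kB factors (GGNNTTTCC), for AP-1 (TGAGTCA) and for the clock output factors DBP, TEF and HLF (TTATGTAA).
Cxcl10, chr5:92348840-92349139, minus strand: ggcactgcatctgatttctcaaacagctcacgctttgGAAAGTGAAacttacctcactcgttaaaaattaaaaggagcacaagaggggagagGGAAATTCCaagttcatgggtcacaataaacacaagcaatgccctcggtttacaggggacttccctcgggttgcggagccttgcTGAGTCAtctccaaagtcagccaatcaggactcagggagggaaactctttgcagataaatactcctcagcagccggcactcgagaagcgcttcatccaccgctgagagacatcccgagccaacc
Gbp2, chr3:142620413-142620712, plus strand: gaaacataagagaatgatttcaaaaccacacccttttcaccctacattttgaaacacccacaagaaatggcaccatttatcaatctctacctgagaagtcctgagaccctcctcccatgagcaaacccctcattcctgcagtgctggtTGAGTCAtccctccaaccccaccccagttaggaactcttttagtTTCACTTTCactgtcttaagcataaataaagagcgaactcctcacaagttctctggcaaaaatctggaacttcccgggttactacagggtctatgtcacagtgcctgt
Irf8, chr8:120736108-120736407, plus strand: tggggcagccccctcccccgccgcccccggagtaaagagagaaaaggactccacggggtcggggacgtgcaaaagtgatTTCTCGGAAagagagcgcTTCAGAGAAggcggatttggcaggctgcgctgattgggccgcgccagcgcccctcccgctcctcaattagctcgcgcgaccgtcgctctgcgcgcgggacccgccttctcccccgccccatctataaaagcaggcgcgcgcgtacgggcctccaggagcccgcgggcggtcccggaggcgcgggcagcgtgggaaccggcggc
Ubd, chr17:37193642-37193941, plus strand: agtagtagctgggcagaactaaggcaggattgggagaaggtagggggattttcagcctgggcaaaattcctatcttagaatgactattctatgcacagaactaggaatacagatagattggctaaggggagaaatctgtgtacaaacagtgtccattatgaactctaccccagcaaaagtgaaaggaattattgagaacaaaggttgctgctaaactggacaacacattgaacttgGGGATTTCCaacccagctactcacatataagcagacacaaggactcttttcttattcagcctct
Tnfaip3, chr10:19015361-19015660, minus strand: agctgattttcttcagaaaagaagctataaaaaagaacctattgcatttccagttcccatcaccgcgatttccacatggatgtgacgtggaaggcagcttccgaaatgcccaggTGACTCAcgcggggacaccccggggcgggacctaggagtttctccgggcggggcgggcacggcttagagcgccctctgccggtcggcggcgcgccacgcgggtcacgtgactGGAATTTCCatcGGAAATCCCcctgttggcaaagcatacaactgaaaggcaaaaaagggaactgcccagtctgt
Saa3, chr7:46715627-46715926, minus strand: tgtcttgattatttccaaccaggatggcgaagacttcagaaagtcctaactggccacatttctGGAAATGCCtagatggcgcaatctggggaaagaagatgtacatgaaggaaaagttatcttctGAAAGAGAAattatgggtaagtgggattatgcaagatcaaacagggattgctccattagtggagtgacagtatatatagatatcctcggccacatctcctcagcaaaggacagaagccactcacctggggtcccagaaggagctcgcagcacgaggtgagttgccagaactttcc
Ciart, chr3:95882179-95882478, minus strand: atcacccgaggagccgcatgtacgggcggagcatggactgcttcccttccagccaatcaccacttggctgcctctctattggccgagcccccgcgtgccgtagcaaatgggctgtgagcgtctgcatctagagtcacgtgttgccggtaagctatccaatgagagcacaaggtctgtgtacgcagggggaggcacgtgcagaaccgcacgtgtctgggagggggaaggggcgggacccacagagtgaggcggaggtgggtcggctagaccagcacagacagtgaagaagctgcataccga

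The Cxcl10 promoter held an IRF core 213 bases before the start site, an NF-kB core 158 before it and an AP-1 site 74 before it, counted to the first base of each match. Tnfaip3 had an NF-kB core at -24 and another at -12 beside an AP-1 site at -136. An IRF core at -58 and an AP-1 site at -102 were found for Gbp2, and 2 STAT cores at -171 and -153 for Irf8. An NF-kB core lay at -14 in Ubd, whereas Saa3 had an NF-kB core at -187 and an IRF core at -125, and in the Ciart window there was no match to any of these letters. Of all 32851 promoters in the table, 8.6% held the IRF core, 8.3% the STAT core, 5.8% the NF-kB core, 5.2% the AP-1 site and 0.9% the clock output site. In the first promoter of 14452 measured genes, the shares were 7.4% for the IRF core, 7.3% for the STAT core, 5.8% for the NF-kB core, 4.4% for the AP-1 site and 0.7% for the clock output site. Over 7 lists, the IRF core was found in 6 of 7 interferon-inducible GTPases, 14 of 32 IRF and antiviral genes, 4 of 22 chemokines, 3 of 14 MHC class I genes, 2 of 15 NF-kB genes, 3 of 25 acute-phase genes and 2 of 19 clock genes. The NF-kB core was found, in the same order of lists, in 0, 4, 7, 2, 7, 3 and 2 genes, the STAT core in 3, 10, 2, 2, 2, 7 and 1, and the AP-1 site in 2, 4, 2, 0, 2, 3 and 0. The clock output site was found in 1 of the 19 clock genes and in none of the other lists. Such matches describe the letters of these windows, and binding was not measured.

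Immediate-early genes, whose transcription starts without new protein synthesis, were still high at 3 h. Of 35 measured, 23 were higher and 1 was lower (24 and 1 after rescaling), and the median difference of the list was 1.90 after rescaling. The largest was that of Ier3, a survival gene downstream of NF-kB, from 14.5, 21.7 and 7.05 to 645.7, 567.5 and 666.0 (5.58, adjusted p = 4.6e-05). Atf3, a stress-induced transcription factor, reached 361.7, 479.4 and 498.0 from 3.28, 14.4 and 19.3 (5.51, adjusted p = 0.00023). Fos, a subunit of AP-1, had signals of 13.8, 3.34 and 10.2 against 131.8, 185.0 and 206.8 (4.46, adjusted p = 0.00034), and its difference from 0 h was 6.00 at 1 h and 3.78 at 6 h. Jun, its partner, had 3.61 at 3 h, 3.70 at 1 h and 2.95 at 6 h.

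Of 38 cytokine genes measured, 13 were higher and none was lower (16 and none after rescaling), with a rescaled list median of 0.96. Ifng, the gene of interferon gamma, was at the floor in 2 control arrays and had signals of 81.5, 68.5 and 116.7 at 3 h (4.61, adjusted p = 6.1e-05). Tnf had its 3 control arrays at the floor and 45.8, 82.9 and 68.2 at 3 h, at least 21.0-fold higher (adjusted p = 0.0020). Il2, the growth factor of T cells, was at the floor in the 3 control arrays too and had 33.9, 20.5 and 39.3 at 3 h, at least 9.91-fold higher (adjusted p = 0.0019). In each of these 3 products of activated lymphocytes or macrophages every array at 3 h was above every control array. Il1rn, the antagonist of the interleukin-1 receptor, rose from 23.5, 58.0 and 13.7 to 514.6, 615.6 and 747.7 (4.54, adjusted p = 0.00062), and Il1b, which it opposes, rose from 20.4, 28.0 and 22.5 to 286.7, 284.0 and 315.6 (3.66, adjusted p = 2.5e-05).

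Chemokines had 20 of 31 measured members higher and 1 lower (23 and none after rescaling) and a rescaled median of 1.98. Cxcl9, induced by interferon gamma like Cxcl10, went from 109.5, 249.9 and 106.9 to 8221, 7993 and 8203 (5.83, adjusted p = 1.9e-05). A dimmer probe of Cxcl9 gave 7.42, which is above the 7.35 of Cxcl10. Ccl11, which attracts eosinophils, was at the floor in all 3 controls and had 89.1, 95.8 and 109.4 at 3 h, at least 32.2-fold higher (adjusted p = 3.3e-05). Cxcl2, which attracts neutrophils, had 132.7, 101.4 and 137.9 at 3 h against 0.571, 8.82 and 5.06 (4.58, adjusted p = 0.00095), while its difference was 7.55 at 1 h. Cxcl2 was thus furthest from its controls at 1 h, whereas Ccl11 had a difference of 1.06 at 1 h and of 6.22 at 6 h. The 1 lower chemokine was lost without control replicate 1 or 2 or 3 h replicate 2 or 3.

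All 18 NF-kB subunits and feedback inhibitors measured were higher at 3 h, as deposited and after rescaling, against 5.15% of all genes, and their differences ran from 0.63 to 5.64. Tnfaip3, the ubiquitin-editing enzyme A20 that shuts down NF-kB signalling and whose promoter is shown above, rose from 19.8, 26.3 and 35.9 to 1235, 1470 and 1282 (5.64, SE 0.24, adjusted p = 1.0e-06). The subunit Relb had 13.9, 21.2 and 15.9 against 273.3, 289.8 and 253.6 (4.02), the inhibitor Nfkbie 54.2, 47.0 and 34.7 against 682.1, 686.1 and 594.0 (3.87), and the coactivator Bcl3 123.5, 142.9 and 149.3 against 1688, 1675 and 1517 (3.56). The spread between arrays of a group was small beside these differences, with SEs from 0.14 to 0.19 for the 3 genes. Nfkb2, a further subunit, had a difference of 3.52 (adjusted p = 2.5e-05).

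Some adhesion molecules of the endothelium rose as well. Of the 18 measured, 6 were higher and 1 lower (7 and none after rescaling). Icam1, which holds leukocytes on the vessel wall, had signals of 66.9, 70.3 and 77.4 at 0 h and 3071, 2628 and 2650 at 3 h (5.28, SE 0.10, adjusted p = 1.2e-08). Vcam1 rose from 66.2, 88.7 and 52.6 to 1127, 1175 and 1237 (4.12, adjusted p = 1.4e-06). The selectins Sele and Selp, on which leukocytes roll, had differences of 4.07 and 2.24. Of 25 Toll-like receptor and inflammasome genes 12 were higher and 1 lower (15 and none after rescaling), among them the lipopolysaccharide coreceptor Cd14 (3.87), the brake Irak3 (4.12), the adaptor Myd88 (2.55) and Nos2 (2.63), the inducible nitric oxide synthase, which had 2 control arrays at the floor. The 1 lower adhesion gene was lost without any array but control replicate 3, and the 1 lower Toll-like receptor gene without any but 3 h replicate 1.

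Genes induced by interferon rose in large part. All 10 measured members of the list of interferon-inducible GTPases, which does not hold the Gbp2b named above (6.34), were higher, with differences from 1.81 to 5.42. Their rescaled median was 3.87, and it had been 0.62 at 1 h, also after rescaling. Gbp2, a guanylate-binding protein that attacks pathogen vacuoles, went from 40.8, 28.4 and 20.8 to 1359, 1239 and 1134 (5.42, adjusted p = 1.6e-06). Gbp6 rose from 174.7, 183.4 and 195.8 to 5588, 5879 and 5347 (4.92), and the immunity-related GTPase Ifi47 from 167.7, 206.9 and 223.9 to 4946, 5902 and 5295 (4.76). The arrays of each group lay close together in all 3 genes. Members of this family have similar sequences, so that a probe may read more than 1 of them.

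Of 41 interferon regulatory factors and antiviral genes measured, 31 were higher and none was lower (34 and none after rescaling), with a rescaled median of 1.86. Mx2, an antiviral GTPase, had uneven controls of 4.35, 5.83 and 27.6 and signals of 235.0, 446.6 and 282.8 at 3 h (5.12, SE 0.67, adjusted p = 0.00087). Irf8, a factor of myeloid cells, rose from 54.7, 41.2 and 36.9 to 957.7, 783.1 and 913.3 (4.34, adjusted p = 8.2e-07), and Irf1, an early target of interferon gamma, from 269.6, 293.2 and 242.1 to 3871, 3560 and 3647 (3.79, adjusted p = 8.2e-07). Ifit2 and Ifit1, which bind foreign RNA, had differences of 4.12 and 3.98 at 3 h, and of -0.09 and 0.11 at 1 h. Irf1, by contrast, already stood at 3.19 at 1 h.

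Genes of the MHC class I pathway had 11 of 17 measured members higher and none lower (12 and none after rescaling). Ubd, a ubiquitin-like protein that marks proteins for degradation, had signals of 10.4, 13.8 and 6.03 at 0 h and 401.1, 339.0 and 550.7 at 3 h (5.47, adjusted p = 2.8e-05), and 0.14 at 1 h and 7.14 at 6 h. Tap1, the peptide transporter, rose from 53.8, 65.2 and 69.1 to 680.8, 724.3 and 681.8 (3.48), and the immunoproteasome subunit Psmb9 from 176.0, 198.9 and 208.6 to 856.7, 1007 and 883.3 (2.23). Of 9 class II genes measured 1, Cd74, was higher (0.62, adjusted p = 0.036), and 4 were higher after rescaling. The call of Cd74 was lost without control replicate 2 or 3 or 3 h replicate 2 or 3.

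Among 28 JAK-STAT and SOCS genes 13 were higher and none lower (14 and none after rescaling). Besides Socs1, the feedback inhibitor Socs3 rose from 37.8, 60.3 and 90.6 to 2058, 1874 and 1578 (4.95, adjusted p = 9.3e-06), read by a probe set that the maker marks as possibly shared with other transcripts, while the 2 further Socs3 probes gave 5.04 and 4.24. Socs2, which restrains growth hormone signalling, went from 43.0, 105.4 and 47.3 to 831.5, 860.3 and 702.6 (3.73, adjusted p = 0.00025). Osmr, the receptor of oncostatin M, and Pim1, a kinase made on STAT activation, had differences of 2.69 and 2.57.

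**Figure D3:**
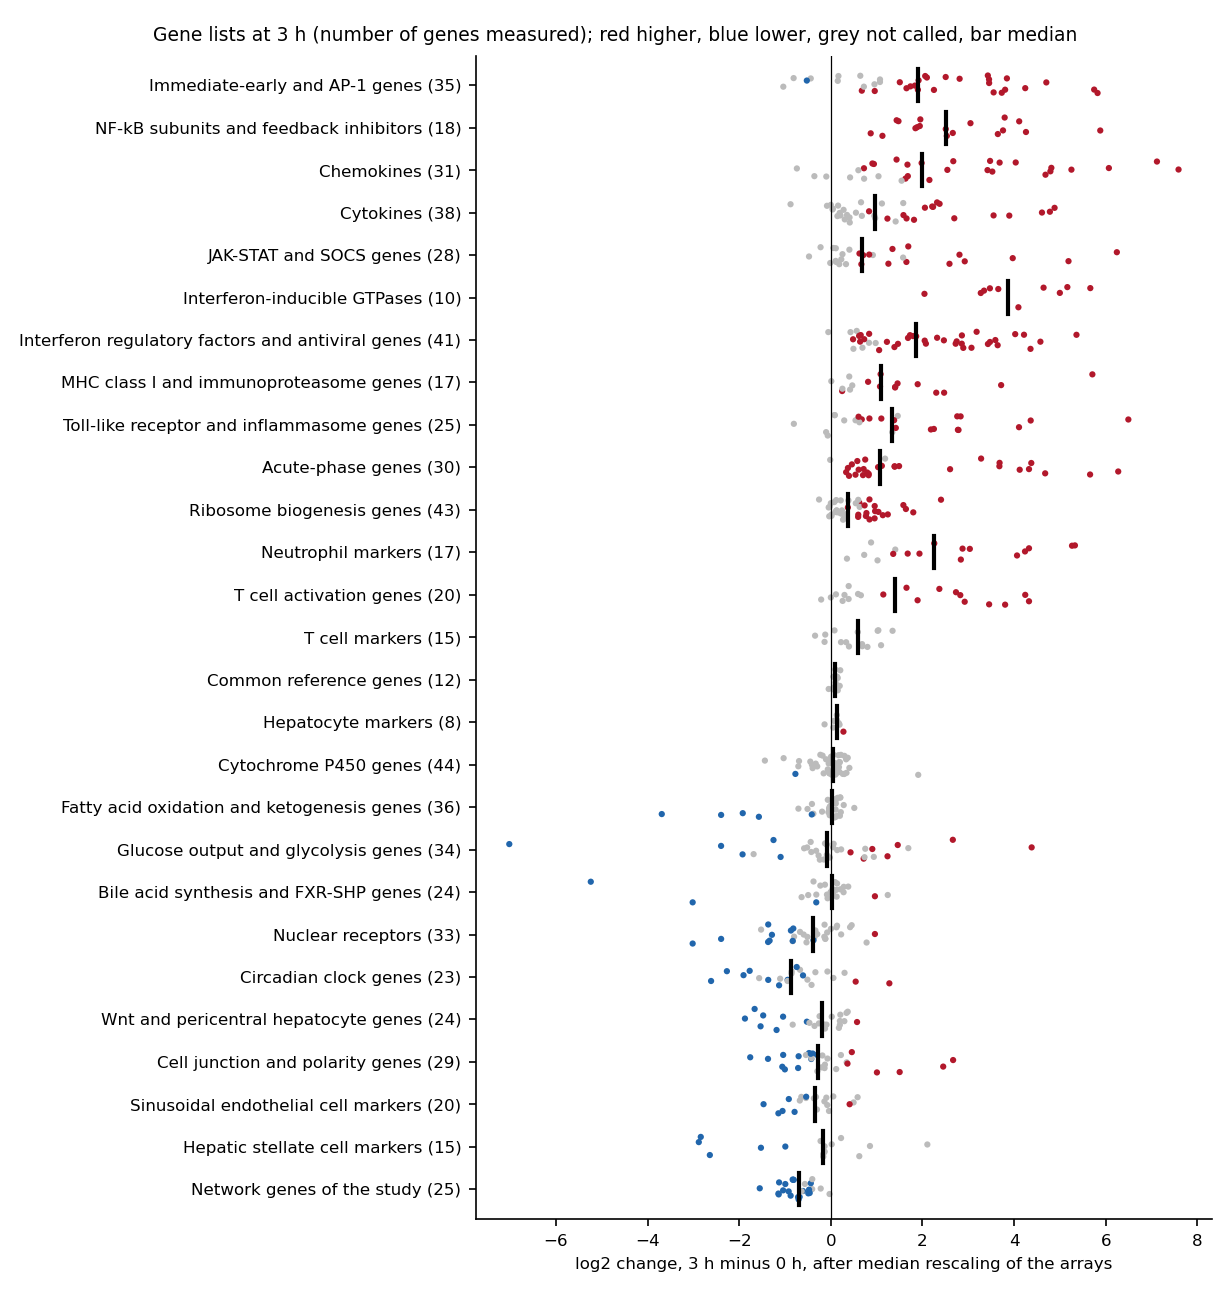
Log2 difference, 3 h minus 0 h after median rescaling (horizontal axis), of every measured gene in 27 of the 62 gene lists, with the number of genes in brackets; points are genes (red called higher, blue called lower, grey not called) and the black bar is the median of the list. All interferon-inducible GTPases and NF-kB genes are red and right of 0, the reference genes and T cell markers are grey, and the circadian clock, nuclear receptor and cell junction lists lie mostly left of 0.

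Most acute-phase genes were higher at 3 h. Of 30 acute-phase genes measured, 23 were higher and none was lower, and 28 were higher after rescaling. Saa3, a serum amyloid A protein of macrophages and hepatocytes, had signals of 70.1, 204.9 and 84.2 in the controls and 6754, 7291 and 6925 at 3 h (adjusted p = 4.4e-06). Lcn2, which withholds iron from bacteria and is also a neutrophil granule protein, rose from 368.4, 428.9 and 280.9 to 6123, 5986 and 5947 (4.09, adjusted p = 5.7e-06). Mt2, a metal-binding metallothionein, had controls of 165.5, 363.8 and 54.5 and reached 6448, 6311 and 6341 (5.42, adjusted p = 0.00016), and Mt1 had a difference of 4.44. Whereas the controls of the metallothioneins differed several-fold, their arrays at 3 h were nearly equal. Saa2, read by a probe set possibly shared with its near-identical relatives, had 246.5, 496.9 and 523.9 against 7210, 6942 and 6991 (4.14).

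Among other secreted proteins of the liver few were called. Of 25 complement genes 2 were higher and 2 lower (5 and 1 after rescaling), among them Cfb, factor B of the alternative pathway (0.59, adjusted p = 0.012). The higher complement genes were 1 without control replicate 3 or 3 h replicate 1 or 2, and the lower ones 1 without control replicate 1 or 2 or 3 h replicate 2 or 3. Of 17 negative acute-phase and plasma protein genes 1 was higher, Serpina7, which carries thyroid hormone, from 169.6, 211.5 and 96.6 to 1643, 760.7 and 1418 (3.00, adjusted p = 0.00052), and its 3 falls were lost after rescaling. Coagulation and fibrinolysis genes had 5 of 28 higher and 3 lower (7 and 1 after rescaling). The urokinase receptor Plaur had 10.6, 14.0 and 7.59 against 89.7, 99.4 and 142.3 (3.38, adjusted p = 0.00013), and F3, tissue factor, which starts clotting, had 30.4, 47.6 and 20.3 against 69.9, 139.4 and 132.3 (1.82, adjusted p = 0.019). Of 28 matrix genes 9 were higher and 2 lower (12 and none after rescaling), led by Mmp13 and by Adamts4, an aggrecanase (4.65). The coagulation count of 5 was 3 without 3 h replicate 2 or 3, and its 3 lower genes were 1 without control replicate 2 or 3 h replicate 1 or 3. The 2 lower matrix genes were 0 without control replicate 2 or 3 h replicate 2, and 1 without control replicate 1 or 3 h replicate 1 or 3.

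Markers of blood cells gave an uneven picture, and in whole liver more cells of a type and more RNA per cell cannot be told apart. Of 17 neutrophil markers 11 were higher and none was lower (12 and none after rescaling), and their summed signal went from 456.7 to 690.3 in the controls to 8009 to 8546 at 3 h, or without Lcn2 from 175.8 to 261.4 up to 1886 to 2599. S100a8, a subunit of calprotectin, had 30.6, 22.4 and 20.0 against 721.0, 798.1 and 938.2 (5.09, adjusted p = 1.2e-06), and S100a9 had 25.4, 22.8 and 20.9 against 613.0, 721.9 and 947.2 (5.03). Clec4e was at the floor in the 3 controls and at least 15.9-fold higher at 3 h. The part of these cells in the rises given above was not tested. Genes of neutrophil precursors, such as Mpo (0.64), Elane (0.78), Ltf (0.49) and Camp (1.17), were not called.

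None of the 15 T cell markers was called either way, although 1 was higher without control replicate 2, and their summed signal was 248.2 to 435.9 in the controls and 303.7 to 355.5 at 3 h, with Cd4 at the floor in the 3 arrays at 3 h. In contrast, 11 of 20 T cell activation genes were higher, also after rescaling, and their summed signal went from 316.3 to 352.7 up to 863.4 to 917.4, with Ctla4 and Gata3 at the floor in the 3 controls. Cd69, an early activation marker, had 2 controls at the floor and 72.6, 56.2 and 42.3 at 3 h (4.08, adjusted p = 7.9e-06). Several genes of that list, such as Egr2 (4.03) and Nr4a3 (3.25), are immediate-early genes of many cell types. Of 15 natural killer and cytotoxic lymphocyte markers 3 were higher, among them the protease Gzmb (3.14, adjusted p = 0.0039) and the factor Tbx21 (2.55, adjusted p = 0.0019). The other 12 were not called, and changes in the list went down to -0.71. These markers were dim, with a summed signal of 92.9 to 151.3 at 0 h and 189.3 to 219.8 at 3 h. Klrc1, Klra8 and Klre1 were at the floor in the 3 controls, and Klrc1 also in the 3 arrays at 3 h. Monocyte markers had 5 of 11 higher and 1 lower (6 and none after rescaling), with a summed signal of 590.3 to 716.2 against 1606 to 1780, or without Cd14, their brightest member, of 539.4 to 679.2 against 869.8 to 1035. The 1 lower monocyte marker was lost without any 1 of the 6 arrays. B cell markers had 1 of 11 higher (2 without control replicate 2), and none of the 8 cholangiocyte markers was called.

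Markers of resident liver cells were lower in part. Kupffer cell markers had 5 of 17 lower and 1 higher (5 and 2 after rescaling), with a summed signal of 4315 to 5792 at 0 h and 3295 to 3713 at 3 h, or 4694 to 5481 and 4001 to 4407 after rescaling. The rescaled median of this list was 0.03. Slc40a1, the iron exporter described below, was the brightest list member in the controls (mean log2 signal 10.49) and fell most (-1.72). The fall of the sum thus rested in part on Slc40a1, and no sum without it was taken. The scavenger receptor Cd163 fell from 115.8, 117.1 and 97.1 to 58.1, 47.5 and 41.6 (-1.17, adjusted p = 0.00062), Clec4f by 0.77 and Vsig4, a complement receptor, by 0.81 on the log2 scale, whereas Adgre1 (-0.20) and C1qb (0.11) were not called. Marco, at the floor in the 3 controls, had the largest rise of the list (1.74). Without control replicate 1 or 2, 3 Kupffer cell markers were lower. Sinusoidal endothelial markers had 7 of 20 lower and none higher (6 and 1 after rescaling), among them the VEGF receptors Kdr (-1.70, adjusted p = 0.0015) and Flt4 (-1.15) and the orphan receptor Gpr182 (-1.29). That endothelial count was 14 without control replicate 3 and 4 without control replicate 1 or 2 or 3 h replicate 3, and the summed signal of these markers overlapped between the groups, with 2339 to 4524 at 0 h and 2459 to 2716 at 3 h. It overlapped after rescaling as well, with 2544 to 4280 and 2880 to 3224.

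Hepatic stellate cell markers had 5 of 15 lower and none higher, and 5 to 6 were lower when any 1 array was left out. Lrat, which stores vitamin A, fell from 114.0, 205.3 and 200.7 to 43.4, 11.1 and 14.9 (-3.12, adjusted p = 0.0055). Hand2, a transcription factor of stellate cells, went from 77.5, 72.3 and 55.1 to 10.1, 6.39 and 8.00 (-3.07, adjusted p = 0.00037), and Pdgfrb, the receptor of platelet-derived growth factor, from 96.0, 103.3 and 64.3 to 14.7, 17.7 and 6.18 (-2.88, adjusted p = 0.0028). The matrix gene Dcn (-0.40), Reln (-0.37) and the pericyte gene Rgs5 (-0.01) were not called. Ngfr had a rise of 1.87, which was not called either. The list therefore held large falls, members near 0 and this rise. Its summed signal was 3452 to 4830 at 0 h and 2733 to 3009 at 3 h, or 3754 to 4570 and 3318 to 3571 after rescaling.

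Death and growth arrest genes were called in both directions. Of 28 death receptor, caspase and BCL2 family genes 7 were higher and 4 lower (10 and 3 after rescaling). The share higher was above the 5.15% of all genes as deposited. The share lower was 14.3%, close to the 14.7% of all genes, and 10.7% after rescaling, against 7.65%. The falls of this list as a whole were thus hardly more frequent than among all genes. Mlkl, which breaks the membrane in necroptosis, rose from 19.2, 6.62 and 39.0 to 113.6, 162.5 and 133.9 (2.99, adjusted p = 0.0041), and the death receptor Fas from 153.9, 119.4 and 93.6 to 476.1, 270.7 and 400.1 (1.64, adjusted p = 0.0073). The apoptosome caspase Casp9 fell from 112.9, 125.0 and 130.7 to 44.2, 30.1 and 39.8 (-1.71, adjusted p = 0.0015), as did Bbc3, a killer protein of the BCL2 family (-1.52). Of 19 growth arrest genes 7 were higher and 5 lower (7 and 2 after rescaling), and the cell cycle inhibitor Cdkn1a had 9.39, 12.3 and 26.4 against 88.1, 100.2 and 100.5 (2.73, adjusted p = 0.0033). The 5 lower genes were 3 without control replicate 1 or 2. Cell cycle genes had 3 of 31 lower and none higher (2 and 2 after rescaling).

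Genes of glucose metabolism were called in both directions. Among 34 glucose output and glycolysis genes 5 were higher and 9 lower (7 and 5 after rescaling). Beside the fall of G6pc, Irs1, which relays the insulin signal, went from 221.4, 242.8 and 302.4 to 30.9, 66.2 and 33.4 (-2.63, adjusted p = 0.00046). Pfkfb3, which speeds up glycolysis, rose from 27.0, 37.2 and 94.9 to 687.1, 973.3 and 791.7 (4.14, adjusted p = 0.00047), and Hk2, a hexokinase that liver normally has little of, from 31.0, 12.4 and 25.6 to 123.4, 102.6 and 120.5 (2.43, adjusted p = 0.0010). Pck1, another enzyme of gluconeogenesis, had 3772, 4046 and 3177 against 2936, 2204 and 2352 (-0.56, adjusted p = 0.047), and this fall was lost after rescaling. The 9 lower genes of the list were 5 without control replicate 2.

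Of 24 bile acid genes 5 were lower and 1 higher (3 and 1 after rescaling). Nr0b2, the receptor SHP that represses Cyp7a1, was lower together with it, from 554.3, 470.7 and 956.0 to 87.8, 72.9 and 45.1 (-3.25, adjusted p = 0.0014). Cyp8b1 (-0.73, adjusted p = 0.11), which makes cholic acid, was not called. Of 36 fatty acid oxidation and ketogenesis genes 6 were lower and none higher (5 and none after rescaling), and the list's rescaled median was 0.03. Those that fell included regulators: Ppara, the receptor that drives the pathway, from 1852, 2139 and 1499 to 287.3, 258.1 and 337.0 (-2.63, adjusted p = 3.3e-05), the coactivators Ppargc1b and Ppargc1a (-1.81, adjusted p = 0.0021), and the hormone Fgf21 (-1.99, adjusted p = 0.034), with 2 arrays at 3 h at the floor. The median of this list was close to the -0.01 of all genes. Its share of lower genes was 16.7% as deposited, near the 14.7% of all genes, and 13.9% after rescaling, against 7.65%.

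Lipogenesis genes had 6 of 28 lower and none higher (4 and none after rescaling), including Lpin2, a phosphatidate phosphatase, from 1320, 1384 and 1155 to 322.0, 194.0 and 315.8 (-2.25, adjusted p = 9.3e-05), and the regulator Srebf1 from 2516, 1828 and 2807 to 902.0, 665.4 and 784.4 (-1.59, adjusted p = 0.0029). Of 44 cytochrome P450 genes 3 were lower and none was higher (1 and none after rescaling), which is below the 14.7% of all genes called lower as deposited. Amino acid catabolism genes had 5 of 45 (11.1%, also below that share) lower as deposited and none after rescaling. None of them was lower without control replicate 1 or 2, and 1 was without 3 h replicate 2 or 3. The 3 lower P450 genes were 0 or 1 without control replicates 1 or 2 or 3 h replicates 2 or 3. Respiratory chain genes had 3 of 71 lower, none after rescaling, and 0 or 1 without those same arrays. For these 4 lists the rescaled medians were -0.28, 0.04, 0.03 and 0.05, against -0.01 for all genes.

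Several nuclear receptors were lower at 3 h. Of 33 measured, 14 were lower and 1 was higher (10 and 1 after rescaling), with a rescaled median of -0.38. Besides Nr0b2 and Ppara, Rora, which acts in the clock and in lipid metabolism, fell from 325.6, 325.8 and 357.7 to 128.8, 80.8 and 130.1 (-1.60, adjusted p = 0.0010), and Nr6a1 from 78.3, 79.2 and 54.3 to 32.8, 14.8 and 24.6 (-1.61, adjusted p = 0.0080). The difference of Rora from 0 h was -0.38 at 1 h and -0.41 at 6 h. Among 22 hepatocyte transcription factors 7 were higher and 9 lower (8 and 4 after rescaling). Cebpd, a driver of acute-phase genes, rose from 80.1, 61.8 and 65.7 to 546.4, 588.9 and 564.3 (3.04, adjusted p = 2.1e-05), while Klf15, which drives amino acid breakdown and gluconeogenesis, fell from 917.5, 896.4 and 863.9 to 111.3, 115.8 and 138.1 (-2.88, adjusted p = 3.3e-05). Hnf4a, the master factor of hepatocytes, had 2111, 2203 and 2547 against 1805, 1702 and 1773, a fall of 0.37 on the log2 scale that was lost after rescaling. Its dimmer probes (-0.62, -0.47 and -0.49) were called lower as deposited and were not tested after rescaling. Without 1 array, 4 to 7 of the transcription factors were higher (4 without control replicate 2) and 4 to 6 lower, each array but control replicate 3 taking the count to 4 or 5.

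Of 23 circadian clock genes 13 were lower and 1 was higher (9 and 2 after rescaling), and the rescaled median was -0.86, against -0.01 for all genes. Ciart, a repressor of the clock whose promoter is shown above, had 60.8, 73.9 and 99.7 at 0 h and 3.73, 19.0 and 16.9 at 3 h (-2.85, SE 0.66, adjusted p = 0.016). Usp2, a deubiquitinase, fell from 299.8, 314.0 and 208.0 to 56.4, 32.2 and 58.9 (-2.50, adjusted p = 0.0021), and the repressor Cry2 from 194.8, 221.1 and 151.3 to 49.4, 32.9 and 46.8 (-2.14, adjusted p = 0.00031). The output factor Dbp went from 1786, 1858 and 1352 to 313.4, 659.8 and 513.2 (-1.80, adjusted p = 0.038), which was lost after rescaling, and its relatives Tef and Hlf had differences of -1.18 and -1.37. The core activators Clock (0.06) and Arntl (-1.01) were not called, and Nfil3, which opposes Dbp, was higher (1.04). Clock genes change with the hour of the day, and no control was measured at 3 h.

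Genes of the pericentral zone and of Wnt signalling had 8 of 24 members lower and none higher (7 and 1 after rescaling). The receptor Lgr5 fell from 75.9, 73.6 and 74.5 to 19.5, 19.5 and 31.1 (-1.71, adjusted p = 0.00021), Tcf7l2, the transcription factor of the pathway, from 87.9, 96.1 and 103.6 to 40.9, 33.3 and 33.6 (-1.42, adjusted p = 2.5e-05), and the endothelial ligand Wnt2 from 50.7, 44.9 and 37.3 to 14.5, 13.5 and 8.32 (-1.90, adjusted p = 0.022). Without control replicate 1 or 2 the count of 8 was 5. Iron genes included Hjv, a coreceptor for hepcidin control, from 627.3, 762.5 and 641.8 to 111.0, 94.3 and 97.1 (-2.75, adjusted p = 0.00015), and the iron exporter Slc40a1 from 1474, 1625 and 1251 to 525.3, 419.5 and 378.9 (-1.72, adjusted p = 0.00015). Of the 29 genes on that list 5 were higher and 4 lower (8 and 3 after rescaling), and without control replicate 2 the lower ones were 2. The share lower was 13.8%, near the 14.7% of all genes, and 10.3% after rescaling, against 7.65%. The share higher was 17.2% against 5.15%, and 27.6% against 8.64% after rescaling.

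Cell junction and polarity genes had 12 of 29 measured lower and 4 higher as deposited, and 12 lower and 6 higher after rescaling. Among the tight junction proteins, Cldn3 fell from 701.4, 713.7 and 688.1 to 245.7, 232.9 and 212.6 (-1.61, adjusted p = 0.00010), Cldn1 from 229.7, 264.4 and 265.0 to 127.9, 99.2 and 85.8 (-1.29, adjusted p = 0.013), and Cldn5, a claudin of endothelium, from 76.4, 52.4 and 62.8 to 21.8, 22.8 and 8.00 (adjusted p = 0.0055). Cldn14, in contrast, rose from 67.4, 75.3 and 88.5 to 336.4, 377.5 and 354.1 (2.21, adjusted p = 0.0010). The gap junction genes parted in the same way, since Gjb1, the main connexin of hepatocytes, was lower (-0.63) and Gja1, the connexin of many other cells, was higher (2.43, adjusted p = 4.4e-06). The Cldn3 and Gja1 probe sets are marked by the maker as possibly shared with other transcripts.

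The study drew a network of genes from these same arrays, and 25 genes of it were examined. At 3 h 22 of them were lower and none was higher (19 and none after rescaling), but the study chose them on these samples, so their direction is not independent evidence. The largest falls were those of the kinase Map2k6 (-1.79, adjusted p = 0.00072), the phosphodiesterase Pde7b (-1.38), the telomerase gene Tert (-1.38) and Hlf. Mpdz, a scaffold of tight junctions, had 271.7, 358.9 and 264.8 against 156.1, 165.5 and 141.6 (-0.94, adjusted p = 0.0049). Against the same controls, the differences of these 22 genes ran from -0.27 to 0.34 at 1 h and from -3.83 to -1.28 at 6 h. The study's own RT-PCR, on RNA from the same samples, went the other way for many network genes. It gave Mpdz, Hlf, Tert, Colec11, Colec12, Dpp4, Fn3k, Klb, Msrb2, Ormdl1 and Sox5 significantly above the control at 3 h. A row named Fastkd1 was significantly above it as well, while another of that name was not. Only Gpd1l was significantly below the control. Of these genes, Dpp4 and Klb were not called on the arrays. The reason for this disagreement with the arrays was not tested.

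Ribosome biogenesis genes had 13 of 43 higher and 1 lower (19 and none after rescaling). Nop58, which guides RNA modification in the nucleolus, rose from 32.7, 30.2 and 44.9 to 146.2, 174.2 and 157.8 (2.17, adjusted p = 0.00023), and Heatr1 from 204.7, 206.7 and 210.3 to 475.3, 635.7 and 542.7 (1.40, adjusted p = 6.4e-05). The proteins of the cytosolic ribosome itself had 2 of 44 higher and none lower, and those of the mitochondrial ribosome had 12 of 74 lower and none higher as deposited but 4 and 4 after rescaling. The 12 were 16.2% of the mitochondrial list, close to the 14.7% of all genes. After rescaling its shares were 5.4% higher and 5.4% lower, against 8.64% and 7.65% of all genes. The count of 13 dropped to 8 without control replicate 1 or 2 or 3 h replicate 2 or 3, and the mitochondrial count of 12 was 5 to 7 without any of control replicates 1 and 2 and the 3 arrays at 3 h.

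**Figure D4:**
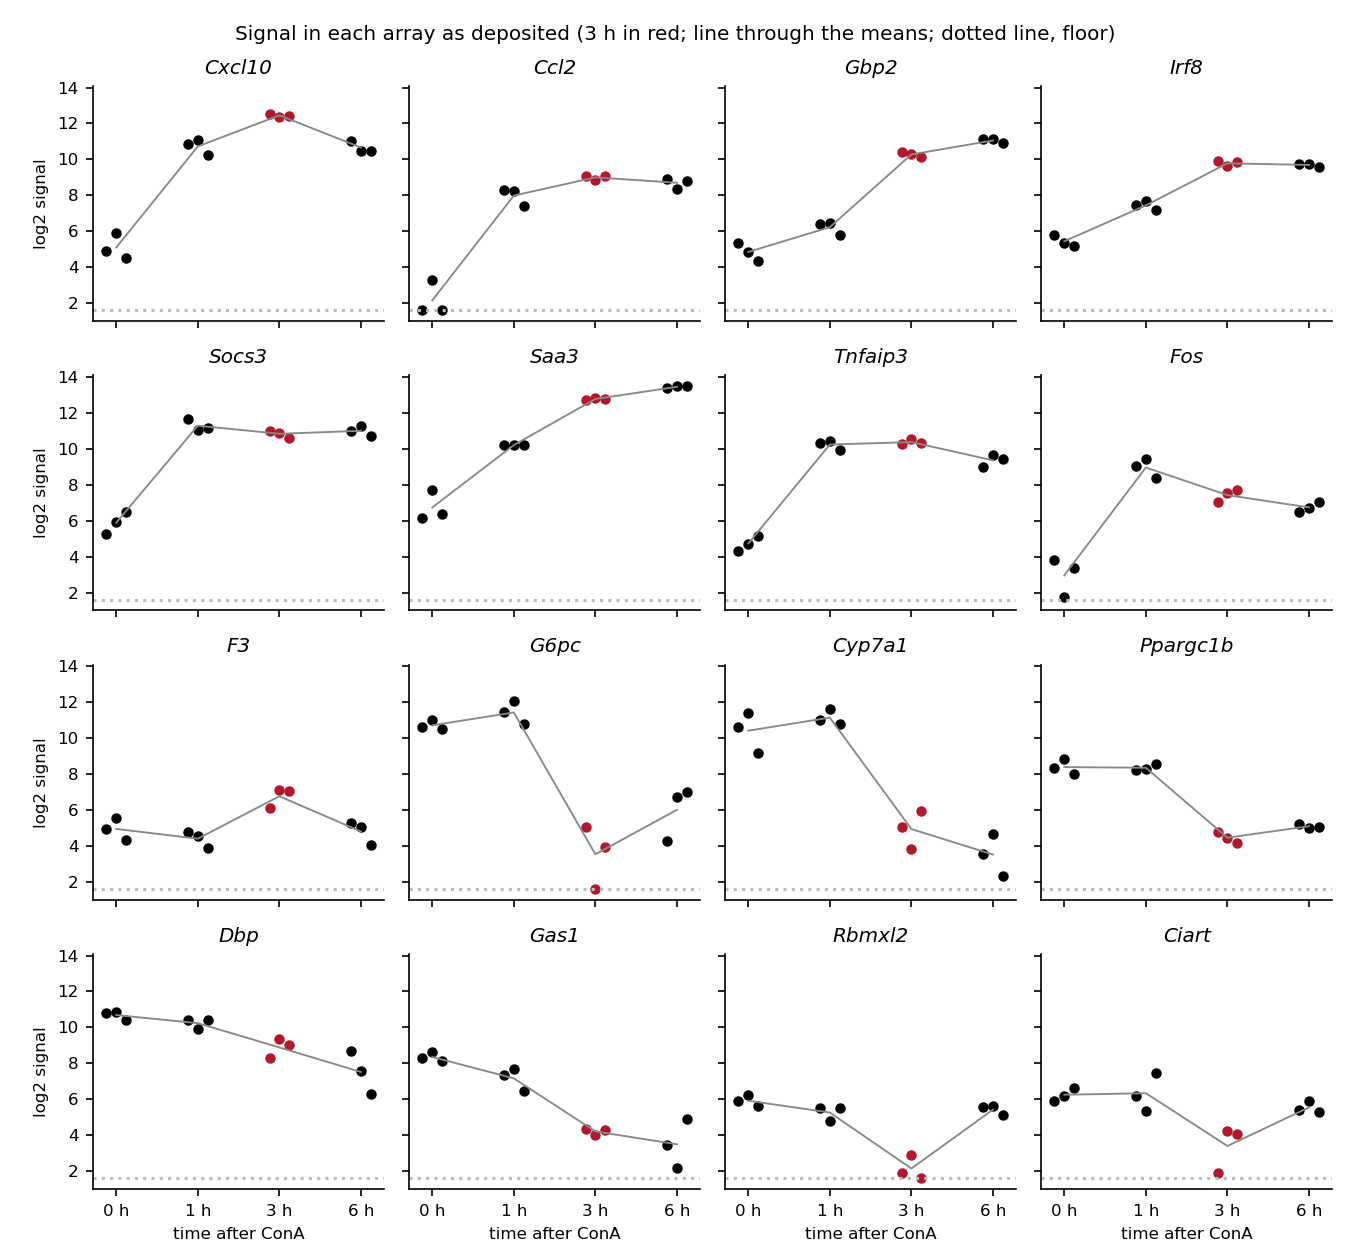
Log2 signal as deposited (vertical axis) of 16 genes in each of the 12 arrays, by time after ConA (horizontal axis), with arrays at 3 h in red, the others in black, a line through the group means and a dotted line at the floor. Cxcl10 and F3 are highest at 3 h, Fos is highest at 1 h, Gbp2 and Saa3 are highest at 6 h, and G6pc, Rbmxl2 and Ciart are lowest at 3 h.

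Genes that stood apart at 3 h from every other time were found by 3 tests each, against 0 h, 1 h and 6 h. After rescaling 224 genes (1.23%) were higher at 3 h than at all other times and 206 genes (1.13%) were lower, whereas as deposited there were 62 and 832, the latter 496 without 3 h replicate 3. The 62 higher and the 206 lower genes were called both as deposited and after rescaling. Rnd1, a GTPase that loosens the actin skeleton, had 34.0, 42.6 and 22.5 at 0 h and 2383, 2768 and 2276 at 3 h, and its rescaled difference from 0 h was 3.92 at 1 h, 6.51 at 3 h and 2.23 at 6 h. Rhob rose from 382.8, 425.3 and 373.9 to 4347, 4525 and 4424 (rescaled 3.73, against 1.85 at 1 h and 1.75 at 6 h). F3, in contrast, had rescaled differences of -0.67 at 1 h, 2.05 at 3 h and -0.30 at 6 h. Pde4b, a phosphodiesterase that breaks down cyclic AMP, had 120.7, 95.4 and 103.6 against 940.7, 756.2 and 1057 by its brightest probe, but 1 of its dimmer probes was called lower (-1.36).

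Of the lows at 3 h, Rbmxl2 had signals of 59.2, 74.8 and 50.4 at 0 h and 3.81, 7.62 and 2.62 at 3 h (rescaled -3.60, against -0.79 at 1 h and -0.65 at 6 h). Mast3, a kinase, fell from 182.3, 219.7 and 180.1 to 17.6, 14.9 and 24.1, and Tcim, a regulator of Wnt signalling, from 314.3, 175.3 and 250.3 to 37.3, 15.8 and 34.1. The transcriptional repressor Hic1 went from 75.9, 73.1 and 51.6 to 6.76, 5.62 and 6.76. All 10 of the deepest lows were also lower than at 0 h, 1 h and 6 h as deposited, while among the 10 highest peaks Susd5 and Siglece passed only after rescaling, and the arrays of Susd5 overlapped between 0 h and 3 h.

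**Figure D5:**
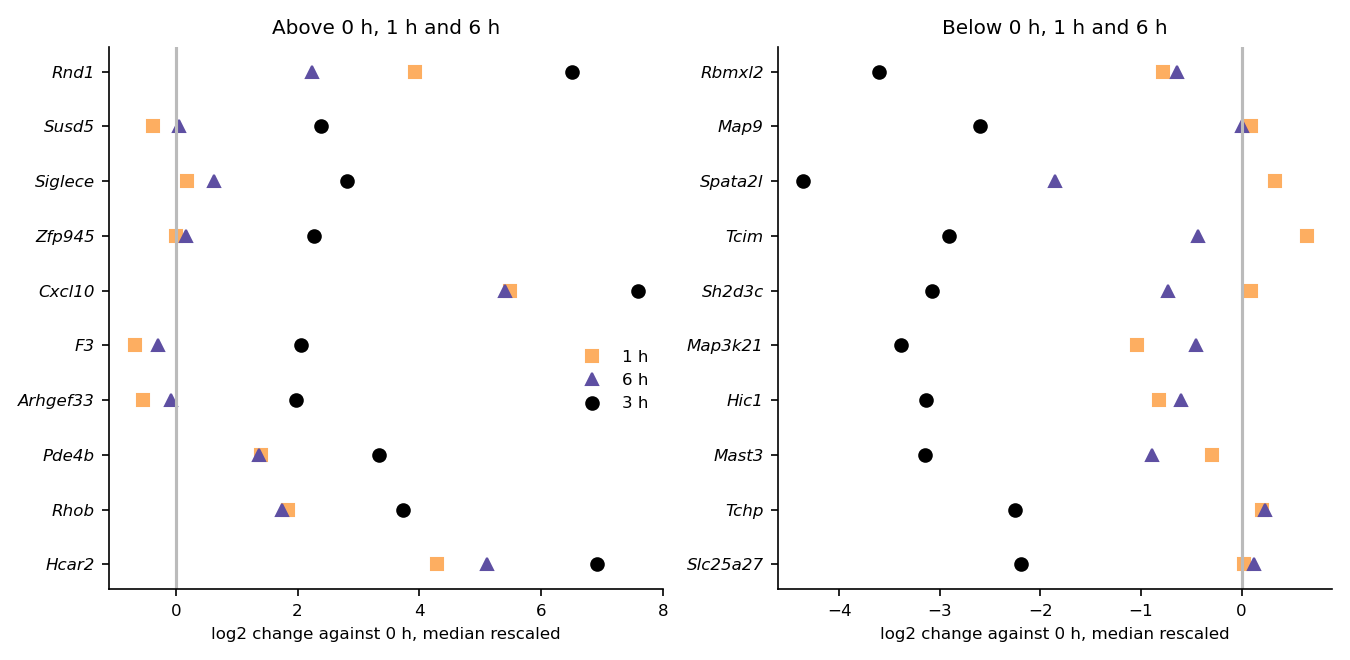
Log2 difference from 0 h after median rescaling (horizontal axis) at 1 h (squares), 3 h (circles) and 6 h (triangles) for the 10 genes with the largest peak (left) and the 10 with the deepest low (right) at 3 h. Rnd1, Cxcl10 and Hcar2 lie right of 0 at all 3 times with 3 h farthest out, whereas F3 and Arhgef33 lie right of 0 only at 3 h, and Map9, Tchp and Slc25a27 lie left of 0 only at 3 h.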

How the data were processed

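The authors deposited a table of linear signal intensities from Affymetrix Mouse 430 2.0 arrays. The labels name MAS5 5.0 as the software and the study's methods name RMA, which gives log values, so that the table, which is linear, was used as it stands. The 64 control probes were left out, and of the 45037 others, 34945 have 1 gene symbol, 932 several and 9160 none. Signals under 3.038 (20th percentile) were raised to it, log2 was taken, and limma 3.58.1 in R 4.3.3 fitted 4 group means over 12 arrays, with eBayes, Benjamini-Hochberg adjustment and a threshold of 0.05, after a test on simulated data. Alternatives were quantile normalization, other floors and filters, all probes, a replicate block and leaving out each array. Rescaling matched the median of each array over 25416 brighter probes.

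Groups came from the labels. The gene lists (62 lists, 1683 genes, 1521 measured), the members and the comparison were chosen with earlier results of these data known. Genes were named as the 15 largest rises and falls called under both scalings with no overlap of arrays, the largest changes of each list and the 10 largest peaks and lows, predicted genes without a name passed over, and further list members were named after their values were seen. A further network gene is not reported here. The rescaled marker sums and those without Lcn2 or Cd14 were added after the data were seen.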

Additional observations from a re-analysis of the deposited data

Results flagged for a closer look

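The 10 genes with the largest peak at 3 h and the 10 with the deepest low were picked out because the level at 3 h differed, by limma after median rescaling, from that at both 1 h and 6 h. As the genes were ranked on these differences, their size is a description. The values below are log2 differences after rescaling, 3 h minus 1 h first and 3 h minus 6 h second.

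Among the peaks, Rnd1 and Rhob had 2.59 and 4.28, and 1.88 and 1.98. Cxcl10 had 2.10 and 2.18, F3 2.73 and 2.35, Hcar2 2.62 and 1.80, and Pde4b 1.94 and 1.97. The immune receptor Siglece had 2.62 and 2.19, Susd5 2.75 and 2.32, Zfp945 2.27 and 2.10, and Arhgef33 2.51 and 2.05.

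Among the lows, Spata2l had -4.69 and -2.50, Tcim -3.55 and -2.47, Sh2d3c -3.17 and -2.35, and Mast3 -2.85 and -2.26. Rbmxl2 had -2.82 and -2.96, Map9 -2.69 and -2.61, Map3k21 -2.35 and -2.94, and Hic1 -2.31 and -2.53. Tchp had -2.45 and -2.49, and the mitochondrial carrier Slc25a27 had -2.21 and -2.32. Dimmer probes of Map9 (0.35 and -0.22), Slc25a27 (-0.4, -0.3 and -0.3) and Map3k21 (-0.97) were not called at 3 h against 0 h, as deposited. A dimmer probe of Tcim was called lower (-3.1).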

How the results depend on the processing

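Calls as deposited numbered 937 higher and 2675 lower genes, while 62 and 832 stood above or below every other time. These counts moved to 1572 and 1391 with 224 and 206 after median rescaling, and to 1450 and 1643 with 151 and 229 after quantile normalization. Counting all probes gave 1699 and 4420 with 91 and 1293, and requiring a 2-fold change gave 574 and 933. With 1 array left out, the ranges were 756 to 863 and 1621 to 2453, with 44 to 62 and 496 to 757. The replicate numbers of the labels did not pair the arrays (correlations of residuals from -0.00347 to 0.0405 for equal numbers and from -0.0322 to 0.0228 for others), and with the replicate number as a block the counts were 925 and 2620 with 60 and 824. A fit of only the 6 arrays gave 801 and 2093, and can give no comparison with other times. Of 254 genes called and picked by the naming rule, 196 kept their direction and call under each alternative in which they had a value; the count of all probes and the 2-fold requirement were not run gene by gene, and 242 had a value among brighter probes alone. The direction of 1, the mitochondrial ribosomal protein gene Mrpl47, reversed, with 0.21 in the mean over its probes. Array number and signals near the floor limit the precision of dim genes.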
